A study of Bos taurus with 27 samples.

Results

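Bovine blastocyst pools with a high mean abundance of transcripts of the epiblast factors NANOG and SOX2 were compared with pools with a low mean. Of the 27 pools sequenced, the 9 with the highest and the 9 with the lowest mean of log2(CPM + 1) of NANOG and SOX2 formed the high and low groups, and the middle 9 were left out of the tests. CPM is the count of a gene per 1000000 counts of its pool. The groups were therefore chosen on measured values and not by a treatment, and nothing about NANOG or SOX2 between them was tested.

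Each pool held RNA of 2 in vitro produced blastocysts that were scored 7 for stage and 1 for quality, and all came from oocytes matured with preovulatory follicular fluid from follicles of greater or lesser maturity. Neither the maturity of the follicles nor the IVF replicate behind a given pool was assigned here, so their part in any difference was not tested. Because a blastocyst holds several cell types that were not separated, fewer cells of a type and less RNA per cell cannot be told apart.

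The blastocyst of cattle is formed by an outer trophectoderm, which makes the placenta, and an inner cell mass that divides into epiblast, the source of the fetus, and hypoblast, which lines the yolk sac. NANOG and SOX2 are transcription factors that maintain pluripotency and become restricted to the epiblast. FGF and Nodal family signals pass between the epiblast and its neighbours, and interferon tau from the trophectoderm is the signal by which the ruminant conceptus announces pregnancy.

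The total count was between 10517606 and 31126142 in the 18 pools compared, so that 1 CPM stood for between 10.5 and 31.1 counts. The exact permutation test (two-sided, 9 against 9 pools) gave p = 0.731 for the total count, 0.654 for the number of genes with a count and 0.342 for the share of counts in the 100 most counted genes, and after adjustment over 5 such measures each had p = 0.842. Transcripts of Y-linked genes reached 10 CPM in 7 high and 7 low pools. Pool 9, a low pool, stood apart from the other low pools in several transcripts, having 19.5 CPM of GATA6 against 197 to 299 CPM in the others and 597 CPM of summed interferon tau against at most 199 CPM. Results that moved with pool 9 are therefore given with and without it.

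NANOG, on chromosome 5 (101412795 to 101417948, ARS-UCD2.0), carried most of the contrast. It reached between 41.2 and 133 CPM in the high pools, with a median of 102 CPM, and between 15.3 and 51.6 CPM in the low pools, with a median of 20.6 CPM. The medians differed by 4.95 fold, and the ranges met only because pool 32 was high and pool 9 was low. Of the 9 high pools, 8 lay above every low pool, and the middle pools ran from 34.6 to 90.7 CPM.

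SOX2, on chromosome 1 (85302293 to 85303771), separated the groups far less. It was between 4.33 and 20.5 CPM in the high pools and between 2.82 and 8.23 CPM in the low pools, with medians of 7.67 and 6.37 CPM. There were 4 of the 9 high pools that exceeded every low pool, and the medians differed by 1.20 fold. Between 41 and 466 reads stood behind the SOX2 value of a pool, against 176 to 3837 for NANOG, and LOC100849009 overlaps SOX2 in the annotation, so reads of these genes could not be told apart where the strand of counting is not stated.

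Pools 32, 25 and 9 owed their groups to SOX2, as each was a middle pool when ranked on NANOG alone. Pool 25 ranked 10 in NANOG, at 70.7 CPM, and 2 in SOX2, at 11.8 CPM. Pool 32 had the highest SOX2 abundance of all pools with a NANOG abundance of 41.2 CPM, and pool 9 had the lowest SOX2 abundance with a NANOG abundance of 51.6 CPM. At the limits of the groups, the mean log2 value was 4.69 in pool 41, the last high pool, and also 4.69 in pool 22, the first middle pool. It was 4.22 in pool 31, the last middle pool, and 4.12 in pool 6, the first low pool. The cut on the high side thus fell between pools that hardly differed.

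**Figure D1:**
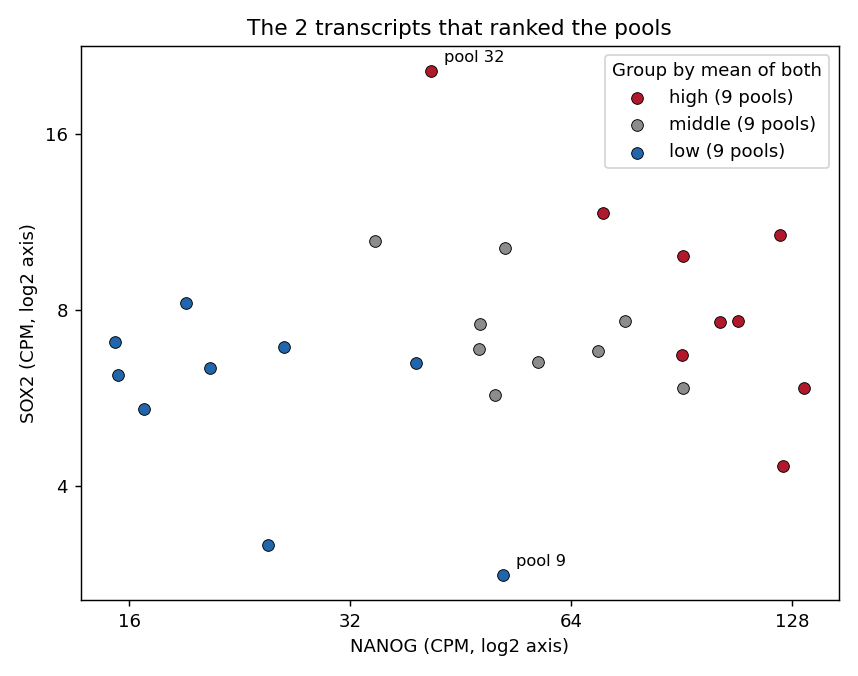
Abundance of NANOG (x axis, CPM, log2 axis) and SOX2 (y axis, CPM, log2 axis) in each of the 27 pools, coloured by group. The high and low pools lie apart along NANOG, with pools 32 and 9 as the exceptions, while their SOX2 values overlap.

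Whether NANOG and SOX2 transcripts varied together was asked by ranking the pools on 1 of them and comparing the other. Over the 27 pools their log2 values had a Pearson r of 0.105 and a Spearman rho of 0.118, given as a description of pools that share a kit and a normalization. Between the 9 highest and 9 lowest pools in NANOG, SOX2 had medians of 7.65 and 6.50 CPM, and the edgeR log2 fold change was 0.20 (SE 0.21, 95% interval -0.24 to 0.64, adjusted p = 0.891). Between the 9 highest and 9 lowest pools in SOX2, NANOG had medians of 70.7 and 50.4 CPM, with a log2 fold change of 0.17 (SE 0.43, 95% interval -0.73 to 1.06, adjusted p = 0.994 in edgeR). Neither difference exceeded the spread between pools. The second interval includes a log2 fold change of 1.06 and therefore bounds the relation poorly. Ranking on NANOG alone kept 7 of the 9 high and 8 of the 9 low pools, and ranking on SOX2 alone kept 5 of 9 in each group. With SOX2 alone, high pools 45 (5.90 CPM) and 41 (4.33 CPM) fell among the 9 lowest. Low pool 19 (8.23 CPM) fell among the 9 highest.

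Few other genes differed between the groups beyond the spread of the pools. Of the 12308 other genes with at least 1 CPM in 12 pools, edgeR's quasi-likelihood test with Benjamini-Hochberg adjustment called 3 genes higher in the high pools (0.0244% of the genes tested) and 1 lower (0.00812%) at an adjusted p of 0.05. These were MCUB, RRAD and STMN1, which rose, and ZMAT3, which fell. At an unadjusted p of 0.05, 385 genes were higher (3.13%) and 449 lower (3.65%), and DESeq2 called 23 genes higher and 11 lower, with all 4 edgeR genes among them. In each of the 4 genes the median of the middle pools lay between those of the high and low pools, as it did in 33.9% of all genes tested. Because the 4 genes were picked for a wide gap between those groups, the place of the middle median is not separate support.

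MCUB, a subunit that restrains calcium uptake through the mitochondrial calcium uniporter, showed the largest change of these. Located on chromosome 6 (15717831 to 15813163), it was between 7.70 and 43.5 CPM in the high pools (median 19.4) and between 2.05 and 9.31 CPM in the low pools (median 3.90). The log2 fold change was 2.50 (SE 0.38, adjusted p = 0.0174 in edgeR), or 5.64 fold. Every low pool was exceeded by 7 of the 9 high pools, and pools 32 and 38 fell within the range of the low pools. With pools ranked on SOX2 alone the log2 fold change of MCUB was -0.21 (SE 0.66, adjusted p = 0.994 in edgeR).

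RRAD encodes a small GTPase that binds calcium channel subunits. It lies on chromosome 18 (34626239 to 34629435). Counts of RRAD came to between 81.0 and 205 CPM in the high pools (median 98.4) and between 34.0 and 75.5 CPM in the low pools (median 57.0), so the groups did not overlap. RRAD had a log2 fold change of 1.08 (SE 0.18, adjusted p = 0.0212 in edgeR). Pool 25 alone reached 205 CPM, and without it the log2 fold change was 0.93 (SE 0.15, adjusted p = 0.0242).

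STMN1, the gene of the microtubule-destabilizing protein stathmin, lies on chromosome 2 (127152984 to 127183810). It was between 331 and 749 CPM in the high pools (median 580) and between 254 and 399 CPM in the low pools (median 344). Its log2 fold change was 0.73 (SE 0.13, adjusted p = 0.0480 in edgeR). Of the 9 high pools, 8 exceeded every low pool, the exception being pool 32 at 331 CPM. STMN1 was near the threshold and remained called in 3 of 18 fits that each left out 1 pool, with an adjusted p of 0.0029 without pool 32. It was lost with RLE size factors (adjusted p = 0.0517), library totals (0.0586), no filter on low counts (0.0682) and a covariate of genes with a count (0.0850).

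ZMAT3, an RNA-binding zinc finger gene, lies on chromosome 1 (88005950 to 88044844) and overlaps LOC132345663. It was between 3.38 and 9.75 CPM in the high pools (median 4.70) and between 9.55 and 22.6 CPM in the low pools (median 13.8). Below every low pool lay 8 of the 9 high pools, and pool 25 at 9.75 CPM just passed pool 33 at 9.55 CPM. The log2 fold change was -1.39 (SE 0.22, adjusted p = 0.0212 in edgeR), and it was -1.33 (SE 0.23, adjusted p = 0.0389) without pool 9.

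These calls depended on single pools. Without pool 35, a low pool and the lowest of all in NANOG, edgeR called 0 genes, the smallest adjusted p was 0.0563 for MCUB and 792 genes passed an unadjusted p of 0.05. MCUB and ZMAT3 were each called in 17 of the 18 fits that left out 1 pool, and RRAD in 15, being lost without pool 19 (adjusted p = 0.0520), pool 21 (0.0662) or pool 35 (0.0609). Leaving out both pools 9 and 32, an alternative chosen after seeing the data, gave 5 genes higher and 2 lower in edgeR. The 3 genes added to those 4 were CRIPTO (log2 fold change 3.40, SE 0.48, adjusted p = 0.0034), MGC127133 (1.49, SE 0.26, adjusted p = 0.0352) and EXO5 (-1.04, SE 0.18, adjusted p = 0.0340).

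Groups that did not overlap were as rare as the calls. In RRAD and LGALS4 every high pool was higher than every low pool (2 genes, 0.0162% of the genes tested), and in AASDH and LOC101902469 every high pool was lower (2 genes, 0.0162%). LGALS4, an epithelial galectin, was between 331 and 446 CPM in the high pools and between 118 and 315 CPM in the low pools (log2 fold change 0.73, SE 0.16, adjusted p = 0.230 in edgeR and 0.0107 in DESeq2). AASDH was between 9.66 and 12.5 CPM in the high pools and between 12.9 and 21.6 CPM in the low pools, with a log2 fold change of -0.42 (SE 0.14, adjusted p = 0.503 in edgeR). LOC101902469, an uncharacterized gene that overlaps VSTM2B, had at most 1.07 CPM in the high pools and at least 1.10 CPM in the low pools (log2 fold change -1.91, SE 0.44, adjusted p = 0.230 in edgeR and 0.0292 in DESeq2). These 3 genes were named after their values were seen.

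Of the other epiblast transcripts, CRIPTO, the co-receptor of Nodal that is also named TDGF1, differed most. It was between 1.75 and 17.1 CPM in the high pools (median 6.97) and between 0.0951 and 5.85 CPM in the low pools (median 1.04). Every high pool exceeded the median of the low pools, and 5 of 9 exceeded every low pool. The log2 fold change was 2.52 (SE 0.59), which edgeR did not call (adjusted p = 0.230) and DESeq2 did (adjusted p = 0.00367). The highest low pool, at 5.85 CPM, was pool 9, and without it edgeR called CRIPTO as well, with a log2 fold change of 3.26 (SE 0.51, adjusted p = 0.0176). Under ranking on SOX2 alone the CRIPTO log2 fold change was -0.28.

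LEFTY2, a secreted inhibitor and target of Nodal, was between 0.00 and 12.7 CPM in the high pools (median 2.53) and between 0.359 and 2.13 CPM in the low pools (median 0.761). Its log2 fold change was 2.10 (SE 0.65, adjusted p = 0.448 in edgeR), and 5 of 9 high pools exceeded every low pool while pool 38 had no LEFTY2 count. NODAL itself reached at most 0.0644 CPM, and 26 of 27 pools had no count of it, which allows up to 0.285 CPM in the pool with the fewest counts. FGF4, the ligand by which the epiblast signals to the hypoblast, reached at most 0.871 CPM and was at 0 in 17 pools, and neither gene was tested.

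POU5F1, which encodes the pluripotency factor OCT4, had nearly the same median in the high (399 CPM) and low pools (408 CPM), with a log2 fold change of 0.22 (95% interval -0.17 to 0.61, adjusted p = 0.859 in edgeR). PRDM14, a transcriptional regulator of pluripotency, had medians of 29.9 and 21.2 CPM (log2 fold change 0.48, SE 0.16, adjusted p = 0.503). OTX2, a homeobox gene of the primed epiblast, had medians of 80.3 and 70.5 CPM (log2 fold change 0.43, SE 0.13, adjusted p = 0.448). The TGF-beta family ligand GDF3, which lies near NANOG on chromosome 5 with DPPA3 between them, had medians of 9.83 and 7.54 CPM (log2 fold change 0.70, SE 0.39, adjusted p = 0.773). KLF4, KLF17 and DPPA3, which mark naive pluripotency in other species, had log2 fold changes of 0.24, 0.32 and 0.20, each with a 95% interval that included 0. In the epiblast list, 34 of 45 genes were tested, 0 were called by edgeR, and 4 were higher (CRIPTO, LEFTY2, OTX2 and PRDM14) and 0 lower at an unadjusted p of 0.05, against 3.13% and 3.65% of all genes tested. The median log2 fold change of the list was 0.09, against -0.01 over all genes tested. It was 0.19 without pool 35, 0.17 without pool 44 and 0.14 without pool 15. It was 0.07 without pool 24, 0.06 under ranking on NANOG alone or on SOX2 alone, and 0.04 with library totals.

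Hypoblast transcripts were mixed. GATA6, which directs hypoblast formation, had medians of 205 CPM in the high and 212 CPM in the low pools, with a log2 fold change of 0.05 (SE 0.27) that became -0.10 (SE 0.12) without pool 9. PDGFRA, the receptor that marks hypoblast precursors, had medians of 45.4 and 29.0 CPM (log2 fold change 0.59, SE 0.20, adjusted p = 0.508 in edgeR). HNF4A, a nuclear receptor of endoderm, had medians of 27.2 and 18.6 CPM (log2 fold change 1.11, SE 0.34, adjusted p = 0.448). GATA4 was between 0.143 and 1.66 CPM in the high pools and between 0.401 and 1.01 CPM in the low pools and was not tested, and SOX17 did not reach 1 CPM in any pool. Of 32 listed hypoblast genes 20 were tested and 0 were called by edgeR, with 5 higher and 1 lower at an unadjusted p of 0.05 (against 3.13% and 3.65% of all genes tested). The median log2 fold change of 0.16 was -0.07 under ranking on NANOG alone and 0.05 without pool 38.

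Genes of the basement membrane that hypoblast and trophectoderm share did not move one way. NID1, the laminin linker nidogen, was between 15.4 and 68.2 CPM in the high pools (median 50.2) and between 3.53 and 32.2 CPM in the low pools (median 17.8). Its log2 fold change was 1.39 (SE 0.33, adjusted p = 0.230 in edgeR and 0.00556 in DESeq2), and 7 of 9 high pools exceeded every low pool. COL18A1, a collagen gene that overlaps other annotated genes, had medians of 3.39 and 1.39 CPM (log2 fold change 1.80, SE 0.42, adjusted p = 0.230 in edgeR and 0.0150 in DESeq2). LAMB1, a laminin chain, differed in the other direction, with medians of 38.7 and 68.5 CPM (log2 fold change -0.64, SE 0.20, adjusted p = 0.448). Fibronectin (FN1) had medians of 887 and 691 CPM, and its log2 fold change of 0.42 (SE 0.17) was 0.33 (SE 0.15) without pool 9. Of 13 tested genes in this list, which was drawn up after values had been seen, 9 had a positive and 4 a negative log2 fold change.

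The main keratins and 4 transcription factors of the trophectoderm did not differ beyond the spread of the pools. The keratins KRT8 and KRT18 had medians of 19410 and 7937 CPM in the high pools and 18607 and 8025 CPM in the low pools, with log2 fold changes of 0.01 that changed sign with library totals in place of TMM (-0.03 and -0.04). The transcription factors CDX2 (log2 fold change -0.02, 95% interval -0.59 to 0.55), GATA3 (0.14, -0.10 to 0.39), TFAP2C (-0.20, -0.46 to 0.06) and TEAD4 (-0.20, -0.59 to 0.19) did not pass the test. ASCL2 (0.77, SE 0.77) and HAND1 (-0.75, SE 0.71), named after their values were seen, were farther from 0 and did not pass the test either. TEAD4 was lowest in pool 9 among the low pools, at 6.54 CPM, and without pool 9 the log2 fold change of TEAD4 was -0.31 (SE 0.14, adjusted p = 0.690 in edgeR). EOMES, a T-box factor of the trophoblast in mice, reached 1 CPM in 1 of 27 pools and was not tested. GATA3, TEAD4, KLF17, FGFR2 and LAMB1 overlap other annotated genes, so their reads are uncertain. In the trophectoderm list 36 of 46 genes were tested and 0 were called by edgeR, with 0 higher and 2 lower (IFNT3 and PAG2) at an unadjusted p of 0.05, a share of 5.56% that was near the 6.78% of all genes, and a median log2 fold change of 0.00.

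Interferon tau was the trophectoderm product that differed most. IFNT3 was between 7.02 and 90.7 CPM in the high pools (median 21.8) and between 8.37 and 580 CPM in the low pools (median 73.7). IFNT3 had a median of 87.8 CPM in the middle pools, above the medians of both groups. Its change was -2.12 on the log2 scale (SE 0.65, adjusted p = 0.448 in edgeR), and 580 CPM came from pool 9, without which it was -1.19 (SE 0.52, adjusted p = 0.677). Summed over the interferon tau genes, the medians were 22.1 and 76.4 CPM, and the exact permutation test of the log2 values (two-sided, 9 against 9 pools) gave p = 0.0587, or 0.293 after adjustment over 5 measures. The groups overlapped widely. The interferon tau genes, and PAG2 with its family, have near-identical copies between which reads may be divided, so their values are uncertain.

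**Figure D2:**
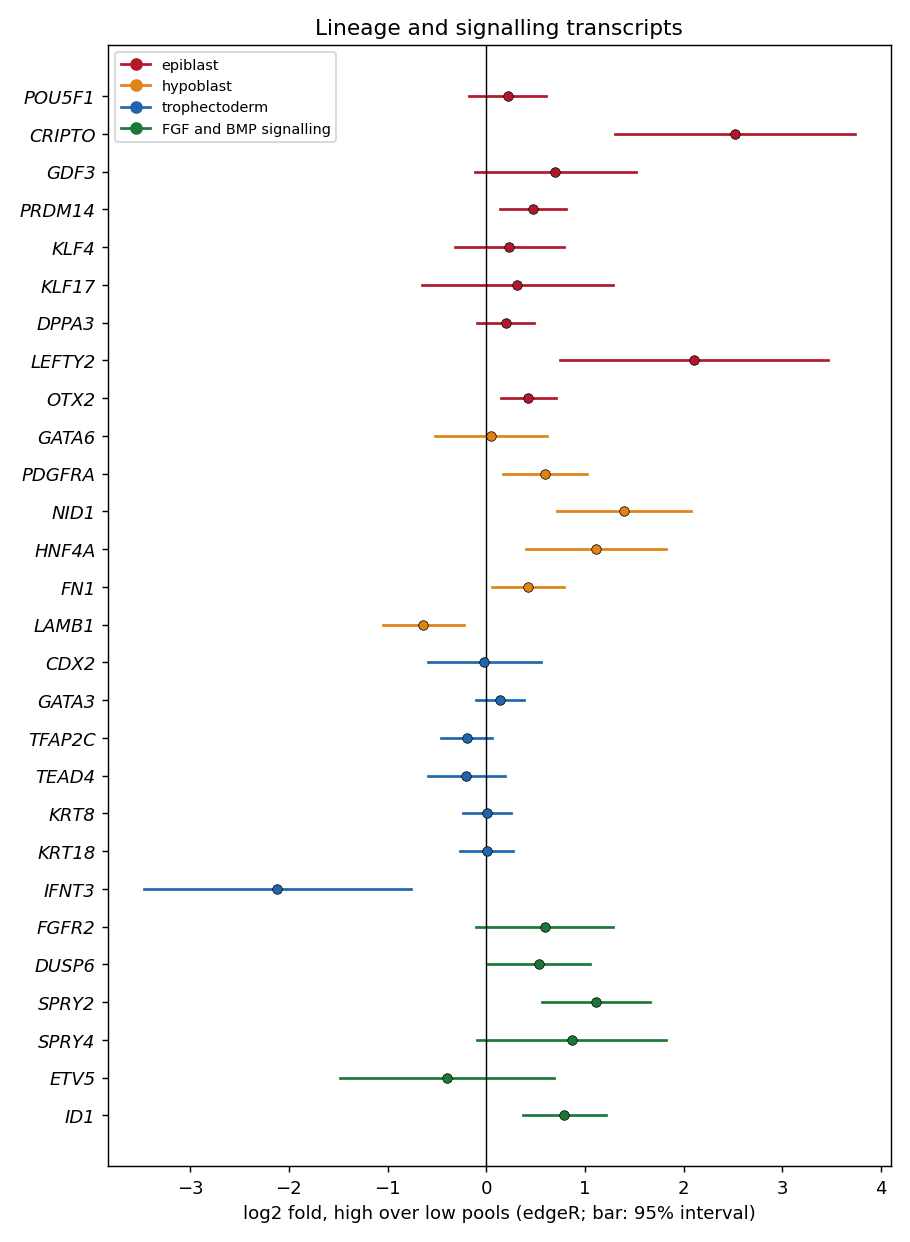
Log2 fold change of the high over the low pools (x axis) with its 95% interval for epiblast, hypoblast, trophectoderm and signalling transcripts (y axis), from edgeR over 9 against 9 pools. CRIPTO (2.52) and LEFTY2 (2.10) lie farthest to the right and IFNT3 (-2.12) farthest to the left, and KRT8 and KRT18 lie at 0. LEFTY2, OTX2, NID1, HNF4A, FN1, LAMB1, SPRY2 and ID1 were added after their values were seen.

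Of the genes that answer FGF signalling, SPRY2 differed most. SPRY2, a feedback inhibitor of receptor tyrosine kinases, was between 10.8 and 38.2 CPM in the high pools (median 16.0) and between 7.92 and 16.8 CPM in the low pools (median 9.72). The log2 fold change was 1.11 (SE 0.26, adjusted p = 0.230 in edgeR and 0.0150 in DESeq2), and every high pool exceeded the median of the low pools. The ERK phosphatase gene DUSP6 had medians of 31.4 and 17.6 CPM (log2 fold change 0.53, SE 0.25, adjusted p = 0.709). SPRY4 (0.87, SE 0.46), FGFR2 (0.59, SE 0.33) and ETV5 (-0.40, SE 0.52) did not pass the test, and ETV4 reached 1 CPM in 3 of 27 pools and was not tested. Of 35 listed genes 22 were tested, with 0 called by edgeR, 2 higher and 0 lower at an unadjusted p of 0.05 (9.09%, against 6.78% of all genes). The median log2 fold change was 0.14, and it was 0.07 without pool 38 and 0.08 without pool 1.

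ID1, a BMP target that inhibits helix-loop-helix factors, was between 4.71 and 9.13 CPM in the high pools and between 2.76 and 4.77 CPM in the low pools. Its log2 fold change was 0.79 (SE 0.20, adjusted p = 0.267 in edgeR and 0.0501 in DESeq2), and 7 of 9 high pools exceeded every low pool. In a list of Nodal, activin and BMP signalling that does not hold CRIPTO and LEFTY2, which were counted with the epiblast, ID1 alone of 25 tested genes passed an unadjusted p of 0.05, and the median log2 fold change was 0.02. In the WNT list 26 genes were tested, LEF1 and FZD3 were lower at an unadjusted p of 0.05 (7.69%, near the 6.78% of all genes), and the median was -0.01.

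Other genes that DESeq2 called and edgeR did not included CDH17, an intestinal-type cadherin, and CAV1, the scaffold of caveolae. CDH17 was between 0.647 and 12.8 CPM in the high pools and between 0.00 and 1.32 CPM in the low pools, with 8 of 9 high pools above every low pool (log2 fold change 3.52, SE 0.81, adjusted p = 0.230 in edgeR and 0.00354 in DESeq2). CAV1 had medians of 15.8 and 3.77 CPM (log2 fold change 1.60, SE 0.38, adjusted p = 0.230 in edgeR). IL6ST, the gp130 receptor of LIF and IL6, had medians of 103 and 65.8 CPM (log2 fold change 0.60, SE 0.15, adjusted p = 0.260). CAV1 and IL6ST overlap other annotated genes.

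Of the genes that DESeq2 alone called lower, MDM2, which encodes a ubiquitin ligase, was between 19.3 and 57.7 CPM in the high pools (median 39.9) and between 52.4 and 226 CPM in the low pools (median 64.2). All but pool 38, at 57.7 CPM, lay below every low pool. The log2 fold change was -1.19 (SE 0.25, adjusted p = 0.195 in edgeR and 0.00212 in DESeq2), and with the mean of NANOG and SOX2 as a continuous measure over 27 pools MDM2 was called, at -0.86 per unit (SE 0.16, adjusted p = 0.0255). AEN, an exonuclease of apoptosis, had medians of 43.4 and 68.2 CPM (log2 fold change -0.50, SE 0.12, adjusted p = 0.260 in edgeR and 0.0483 in DESeq2). Of the 9 high pools, 6 lay below every low pool in AEN. TNFRSF10D, a TRAIL receptor on an unplaced scaffold, had medians of 9.53 and 18.5 CPM (log2 fold change -0.97, SE 0.25, adjusted p = 0.267 in edgeR and 0.0431 in DESeq2). Its median in the middle pools was 8.13 CPM, below that of the high pools.

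Transcripts of oxidative phosphorylation, by which mitochondria make ATP, had small positive differences. Of 47 tested subunit genes 46 had a positive log2 fold change, where 5859 of all 12308 genes did. The median was 0.17, with a range of -0.01 to 0.34. At an unadjusted p of 0.05, 13 were higher and 0 lower, against 3.13% and 3.65% of all genes. The median of the middle pools lay between those of the high and low pools in 8 of the 47 (17.0%). It did so in 33.9% of all genes tested. Of the 47, edgeR called 0. NDUFB10, a subunit of complex I, was between 510 and 655 CPM in the high pools (median 587) and between 377 and 602 CPM in the low pools (median 469), with a log2 fold change of 0.34 (SE 0.09, adjusted p = 0.369 in edgeR). COX5B of complex IV had medians of 2821 and 2322 CPM (log2 fold change 0.31, SE 0.10, adjusted p = 0.488), and 2247 CPM in the middle pools. The summed abundance of the list was between 34352 and 43504 CPM in the high pools and between 30084 and 39531 CPM in the low pools, so the groups overlapped. Ranking on SOX2 alone gave 23 positive and 24 negative members with a median of -0.01, and ranking on NANOG alone gave 45 positive with a median of 0.15.

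Glycolysis and cell cycle genes did not shift as lists. Of 29 glycolysis and pentose phosphate genes 14 were positive, with a median of -0.01, and PGD and TKT of the pentose phosphate pathway were higher at an unadjusted p of 0.05 (6.90%, against 6.78% of all genes). Of 45 mitosis and cell cycle genes 25 were positive, with a median of 0.06. At an unadjusted p of 0.05, 2 were higher and 2 lower (8.89%, against 6.78% of all genes). The stress, unfolded protein and apoptosis list had 35 negative members of 43, where 6449 of all 12308 genes were negative, and a median of -0.17. CHAC1, MDM2, DDIT4 and DDIT3 were lower at an unadjusted p of 0.05 (9.30%, against 3.65% of all genes), but the median was -0.09 without pool 9 and -0.04 without pools 9 and 32. In none of these lists did edgeR call a gene.

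Chromatin genes differed by small amounts. HELLS, a helicase needed for DNA methylation, had medians of 81.1 and 66.2 CPM (log2 fold change 0.45, SE 0.11, adjusted p = 0.267 in edgeR), and every high pool exceeded the median of the low pools. HDAC1, a histone deacetylase, had medians of 539 and 468 CPM (log2 fold change 0.28, SE 0.08, adjusted p = 0.393). The de novo methyltransferase DNMT3B had a log2 fold change of 0.36 (SE 0.20, adjusted p = 0.773). The medians of 16 tested DNA methylation genes and of 31 tested Polycomb and chromatin genes were -0.04 and 0.04. Among 26 tested genes of cavitation and epithelium the median was -0.03. XIST, the RNA that silences an X chromosome in females, had medians of 6.71 and 6.94 CPM (log2 fold change -0.18, SE 0.84).

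Transcripts listed as markers of cells and stages other than the blastocyst were also compared. Oocyte transcripts were negative in 14 of 16 tested genes with a median of -0.53, which was -0.28 without pool 1, and 0 reached an unadjusted p of 0.05. Their summed abundance, of which DPPA3 made up between 211 and 410 CPM in the high pools, had medians of 491 CPM in the high and 447 CPM in the low pools. Leukocyte markers were negative in 12 of 13 tested genes with a median of -0.39, which was -0.20 without pool 9. Their sum was between 35.9 and 93.3 CPM in the high pools and between 42.8 and 143 CPM in the low pools, and CD4, ITGAM and LAPTM5 (3 of 20 listed markers) were below 1 CPM in every pool. AIF1, a macrophage gene that overlaps NCR3, had medians of 4.26 and 8.46 CPM (log2 fold change -1.29, SE 0.35, adjusted p = 0.351 in edgeR). Cumulus and granulosa markers summed to between 62.3 and 451 CPM in the high and between 60.7 and 590 CPM in the low pools. Of these markers, 5 of 9 tested genes were positive and 6 of 20 listed were below 1 CPM in every pool. One of the 6 was FOXL2, the transcription factor that defines granulosa cells, which had no count in 26 of 27 pools. In contrast, FSHR, CYP11A1, STAR and HSD3B1 had a count in every pool and reached 24.6, 39.7, 19.1 and 517 CPM. HSD3B1, the most abundant tested gene of the list, had medians of 55.7 and 161 CPM (log2 fold change -0.90, SE 0.59, adjusted p = 0.802 in edgeR). Whether such cells were present, or had a part in the differences above, was not tested.

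**Figure D3:**
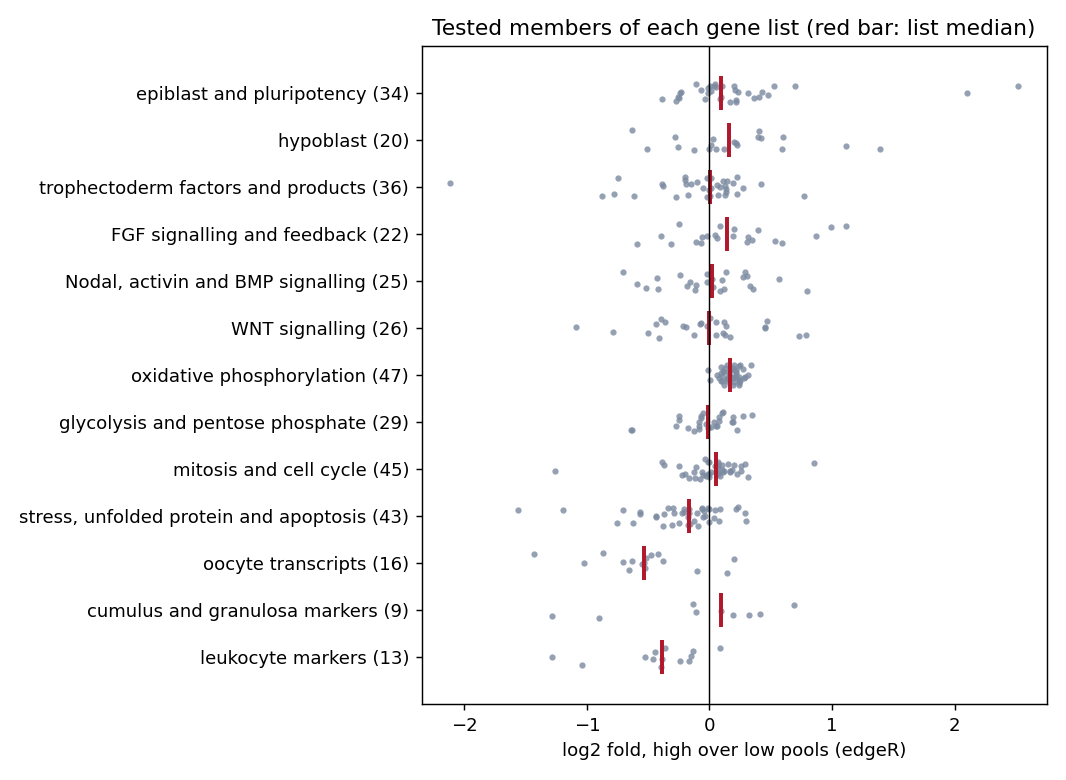
Log2 fold change of the high over the low pools (x axis) for every tested gene of 13 lists (y axis, number of tested genes in parentheses), from edgeR over 9 against 9 pools, with a red bar at the median of each list. The points of the oxidative phosphorylation list sit close together around 0.17, and the medians of the oocyte and leukocyte lists lie at -0.53 and -0.39.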

How the data were processed

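Per the labels and the study's methods, cDNA of each pool was made from the poly(A) end with a 3' version of the SMART-Seq v4 kit. Reads from the forward end were trimmed (fastp), aligned by STAR against ARS-UCD2.0 and assigned to genes by featureCounts, and the authors deposited the resulting raw counts of 32637 genes. Tool versions, annotation release and strand setting are not given in the sources used here.

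CPM used the total count of each pool. Of the 12310 genes with at least 1 CPM in 12 of 27 pools, 907 reached it in fewer than 18 pools. NANOG and SOX2 were left out of the tests, leaving 12308 genes. The counts of 9 high and 9 low pools were compared with edgeR 4.0.16 (TMM, quasi-likelihood, two-sided, Benjamini-Hochberg adjustment, adjusted p of 0.05), without covariates. DESeq2 1.42.0 (R 4.3.3) was an alternative. Other measures were compared by exact permutation (numpy 2.4.6). In all, 351 pairs of pools were compared, and each pair differed by more than sampling noise (chi-square per degree of freedom at least 22.5). The calculations were tested on simulated data. P-values describe the spread between pools, which may share an IVF replicate. Since the groups come from measured values, they describe an association. Intervals of log2 fold changes come from the same fits as the p-values, so they also include the spread between pools. The limit of 3 counts covers counting error only, as reads are not molecules.

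Groups, gene lists and preset genes were chosen with earlier results of these data known. Named were, in each direction, up to 12 called genes of at least 5 CPM with a gene symbol, called list members and 28 preset genes. Other genes named, and the basement membrane list, were chosen after their values were seen. Gene positions were taken from RefSeq (ARS-UCD2.0). Promoter motifs were not analysed here, and a few genes are not reported here.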

Additional observations from a re-analysis of the deposited data

Results flagged for a closer look

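Of 124 sets of 9 values examined, 10 held a pool whose gap to its nearest neighbour, as a share of the range, passed Dixon's 95% critical value. Gaps of transcripts were taken on the log2(CPM + 1) scale, and the values are given in CPM. Chance gives such a pool in about 1 set of 20. Pool 9 accounted for 5 of them, all among the low pools. It was below the other low pools in GATA6 (19.5 CPM against at least 197), TEAD4 (6.54 CPM against at least 14.7) and FN1 (294 CPM against at least 531). It was above them in CRIPTO (5.85 CPM against at most 1.47) and in EOMES (0.964 CPM against at most 0.147).

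The other such values were spread over 5 pools. Among the high pools, RRAD was 205 CPM in pool 25 against at most 119 CPM, HDAC1 was 624 CPM in pool 26 against at most 564 CPM, and NODAL was 0.0644 CPM in pool 36 and 0 in the rest. Among the low pools, SOX17 was 0.756 CPM in pool 35 against at most 0.0734 CPM, and pool 28, which had the lowest total count, had 15801 genes with a count against at least 16878.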

How the results depend on the processing

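Over all alternatives and named genes, 1456 log2 fold changes kept their direction and their side of the threshold, 59 reversed, 37 lost a call and 16 gained one. The count of genes higher, 3, became 1 with 13 against 13 pools, 2 (without STMN1) with RLE size factors, library totals, no filter or the covariate of genes with a count, 23 with DESeq2, 5 without pools 9 and 32 (chosen after seeing the data), and 0 with SOX2 alone, a ranking pseudocount of 0.1 or an adjusted p of 0.01. The count of genes lower, 1, became 0 with 13 against 13 pools, NANOG alone, SOX2 alone or an adjusted p of 0.01, 11 with DESeq2, and 2 with the Y-linked covariate or without pools 9 and 32. With SOX2 alone, where edgeR called 0 genes, 531 passed an unadjusted p of 0.05. The gene kept with 13 against 13 pools was STMN1. NANOG alone called STMN1, MCUB, CRIPTO and MGC127133, and the continuous measure called STMN1, RRAD, SANBR, SEPTIN4 and MDM2. The gene added by the Y-linked covariate was DNAH12. Leaving out 1 pool gave 0 to 4 genes higher and 0 to 2 lower, with 1 gene higher without pool 19 or 21, 0 in both directions without pool 35, and 2 lower without pool 32 or 44.

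Ranking on SOX2 alone reversed the log2 fold changes of 14 named genes, giving MCUB -0.21, CRIPTO -0.28, LEFTY2 -1.12, KLF17 -0.16, GATA3 -0.19, TEAD4 0.083, KRT8 -0.13, KRT18 -0.24, DUSP6 -0.30, SPRY4 -0.30, COL18A1 -0.48, HNF4A -0.16, CDH17 -0.56 and COX5B -0.029. That ranking also turned the difference in total count (2960480 counts higher in the high pools), genes with a count (749 more) and share of the 100 most counted genes (-1.21 percentage points). With 13 against 13 pools KLF4 was -0.043, GATA6 -0.018, GATA3 -0.14, KRT8 -0.14, KRT18 -0.14 and XIST 0.13. NANOG alone gave KLF4 -0.034, GATA6 -0.18 and XIST 0.28, and the continuous measure gave GATA6 -0.0065, KRT8 -0.046, KRT18 -0.069 and XIST 0.14. Library totals gave KRT8 -0.034 and KRT18 -0.043, the covariate of genes with a count gave KRT18 -0.0020 and the ranking pseudocount of 0.1 gave KRT18 -0.0092. Without pools 9 and 32, GATA6 was -0.074 and CDX2 0.042. Leaving out 1 pool moved CDX2 from -0.10 to 0.13, GATA6 from -0.10 to 0.12, KRT8 from -0.031 to 0.073, KRT18 from -0.067 to 0.088 and XIST from -0.62 to 0.22. The cause of these changes was not tested. Library totals moved the median of all genes by less than 0.1. No paired analysis was possible because the labels give no replicate numbers that pool pairs could share. Promoter motifs were not run. Genes under 1 CPM rest on few counts, and FGF4, NODAL and SOX17 were not tested.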
